A study of Mus musculus with 46 samples.

Results

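The 9 genes for chemotactic and metabolite receptors of the G protein-coupled receptor family, Fpr1, Fpr2, Cxcr4, Cx3cr1, Ccrl2, Gpr84, Adora2a, Adora2b and Ednrb, were followed in mouse bone marrow-derived macrophages. They were taken by symbol from the expression tables, where all 9 were listed, out of 25624 gene symbols in the series. The 9 had been selected on differences measured in these same libraries. The counts and p-values given here therefore describe these libraries and are no independent evidence that the receptors respond. For the 4 hr stimulus comparisons and for BRM014 at 4 hr, where changes of Cxcr4, Fpr1 and Fpr2 were already known, values are given as a description with no p.

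Polyadenylated RNA was sequenced from 45 libraries in 4 experiments with a table each. Experiments 1 and 4 used wild-type cells given lipid A, the part of bacterial LPS that activates the receptor TLR4. Experiment 1 holds controls at 0, 1 and 4 hr, together with a 4 hr group for each of the compounds ACBI1, BRM014 and BRDK98, and experiment 4 holds controls at 0, 20 and 60 min and the 3 compounds at 20 and 60 min. Experiment 2 compared Arid1a f/f with Arid1a-/- cells given LPS (controls at 0, 1 and 4 hr, Arid1a-/- at 1 and 4 hr), and experiment 3 compared Pbrm1 f/f with Pbrm1-/- cells at 4 hr of lipid A, with Pbrm1 f/f cells at 0 hr. Each group holds 2 libraries, except the 4 hr control of experiment 1, which holds 1. ACBI1 causes degradation of SMARCA2, SMARCA4 (the ATPases of SWI/SNF complexes) and PBRM1. BRM014 blocks ATP hydrolysis by the same ATPases, and of BRDK98 no more than the code name is used here. The labels give no dose, no length of compound treatment, no vehicle and no Cre driver, and no group here combines a perturbation with absence of stimulus. They also do not say whether replicates came from separate cultures or animals, so p-values measure the spread between these libraries, which may be technical.

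These receptors signal through heterotrimeric G proteins, and on macrophages they guide movement or tune activation. FPR1 and FPR2 detect formylated peptides released by bacteria and mitochondria and couple to inhibitory G proteins, CXCR4 and CX3CR1 bind the chemokines CXCL12 and fractalkine, and CCRL2 is an atypical receptor that binds chemerin without signalling in the usual way. GPR84 responds to medium-chain fatty acids, the adenosine receptors encoded by Adora2a and Adora2b raise cyclic AMP and restrain inflammatory output, and the type B endothelin receptor, encoded by Ednrb, binds endothelins. SWI/SNF remodelling complexes move nucleosomes at promoters and enhancers, and their ATPases and the subunits ARID1A and PBRM1 are the targets perturbed here.

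In the mm10 coordinates of the tables, Fpr1 lies on the minus strand at chr17:17876471-17883939 and Fpr2 on the plus strand at chr17:17887824-17893952. The pair are divergent neighbours whose start sites are 3885 bases apart. Cxcr4 is at chr1:128588199-128592299, Cx3cr1 at chr9:120048683-120068296, Ccrl2 at chr9:111054834-111057244, Gpr84 at chr15:103308235-103310438 and Ednrb at chr14:103814615-103843701, all on the minus strand. Adora2a at chr10:75317600-75334792 and Adora2b at chr11:62248984-62266452 lie on the plus strand. Reads were counted over exons on both strands. In the GENCODE annotation of the reference, exons of Fpr2 are overlapped by Fpr3, those of Gpr84 by the antisense gene Gm49482 and those of Cx3cr1 by Gm33858, so the counts of these 3 genes are less certain.

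RefSeq promoter sequences (GRCm38.p6) matched 8 of the 9 genes, all but Adora2a. The 250 bases before the start site are shown for 6 genes, read 5′ to 3′ on the strand of the gene, with CpG dinucleotides in capitals. They are the adjacent Fpr1 and Fpr2, which were both low with all 3 compounds at 4 hr, Ccrl2 and Gpr84, which rose within 1 hr, and Adora2b and Cxcr4, which moved in opposite directions by 1 hr.
Fpr1: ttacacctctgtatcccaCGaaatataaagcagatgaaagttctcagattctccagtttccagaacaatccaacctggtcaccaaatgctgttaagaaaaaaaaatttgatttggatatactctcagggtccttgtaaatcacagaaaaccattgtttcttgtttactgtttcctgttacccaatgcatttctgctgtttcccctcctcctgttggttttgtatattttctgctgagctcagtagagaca
Fpr2: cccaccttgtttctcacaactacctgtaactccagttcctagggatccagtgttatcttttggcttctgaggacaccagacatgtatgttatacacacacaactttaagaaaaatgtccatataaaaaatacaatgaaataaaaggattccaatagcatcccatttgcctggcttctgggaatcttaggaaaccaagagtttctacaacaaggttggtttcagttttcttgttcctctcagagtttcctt
Ccrl2: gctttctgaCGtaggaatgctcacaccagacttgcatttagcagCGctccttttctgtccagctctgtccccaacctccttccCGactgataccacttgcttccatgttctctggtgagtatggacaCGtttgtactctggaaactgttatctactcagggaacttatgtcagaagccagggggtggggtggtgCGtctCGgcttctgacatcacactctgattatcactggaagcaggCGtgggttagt
Gpr84: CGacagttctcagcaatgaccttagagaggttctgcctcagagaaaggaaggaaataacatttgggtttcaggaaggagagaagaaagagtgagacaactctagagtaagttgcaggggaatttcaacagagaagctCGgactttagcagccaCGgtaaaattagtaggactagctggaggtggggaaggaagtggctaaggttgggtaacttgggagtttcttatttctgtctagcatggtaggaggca
Adora2b: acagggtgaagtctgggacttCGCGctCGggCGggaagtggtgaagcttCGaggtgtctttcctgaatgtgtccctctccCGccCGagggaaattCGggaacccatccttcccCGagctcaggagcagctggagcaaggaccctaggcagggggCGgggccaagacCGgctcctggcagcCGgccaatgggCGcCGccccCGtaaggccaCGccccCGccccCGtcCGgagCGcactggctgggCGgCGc
Cxcr4: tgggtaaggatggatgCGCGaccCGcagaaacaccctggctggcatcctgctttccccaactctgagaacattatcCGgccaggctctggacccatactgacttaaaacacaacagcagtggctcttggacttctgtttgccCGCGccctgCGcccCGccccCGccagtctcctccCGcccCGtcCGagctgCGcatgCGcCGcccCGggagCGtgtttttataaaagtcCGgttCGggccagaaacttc
The windows are chr17:17883940-17884189 for Fpr1, chr17:17887574-17887823 for Fpr2, chr9:111057245-111057494 for Ccrl2, chr15:103310439-103310688 for Gpr84, chr11:62248734-62248983 for Adora2b and chr1:128592300-128592549 for Cxcr4.

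CpG content separated these promoters. Fpr2 has 0 CpG and Fpr1 has 1, Gpr84 has 3 and Ccrl2 has 7, whereas Cxcr4 has 19 and Adora2b has 22. Cx3cr1 has 4 and Ednrb has 11. The median over 32851 mouse promoters was 6, with 2 and 16 at the quartiles. Of those promoters, 7.87% had fewer CpG than Fpr1 and 85.2% had fewer than Adora2b. Motifs were searched on both strands in 300 bases, the 250 shown and the 50 that follow. The TATA box letters TATAAA begin at position -30 from the start of Cxcr4, where the reverse strand also holds them from -32, at -227 in Fpr1 and at -130 in Fpr2, and 13.6% of promoters hold them. The GC box letters GGGCGG occur at 6 places in Adora2b and 3 in Cxcr4, and 35.7% of promoters hold at least 1. None of the 8 windows held NF-kB (4.79% of promoters), AP-1 (TGANTCA, 7.81%), ISRE (3.44%), C/EBP (TTGCNNAA, 10.8%), PU.1 (GAGGAAG, 13.6%) or CRE (TGACGTCA, 1.79%) letters, which says only that these letters are not in these windows. A match is a description of the letters and not evidence of a bound site.

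Libraries held 7015041 to 27527063 exonic reads, and 3 reads on a receptor transcript corresponded to 0.035 to 0.461 TPM, the level below which a listed value cannot be told from 0. All 8 macrophage markers were expressed (13348 to 46867 TPM summed), and lymphocyte and dendritic markers summed to at most 1.17 TPM. Neutrophil markers summed to 6.33 to 50.6 TPM in experiments 1 and 2 and to 270 to 512 TPM in experiments 3 and 4. These sums were mainly S100a8, S100a9 and Ngp. The defining gene Ly6g reached at most 0.339 TPM and Retnlg 1.53 TPM. The other neutrophil markers were present in experiment 4, Ltf at 8.95 to 17.0, Mpo at 2.295 to 3.86 and Elane at 1.405 to 3.335 TPM. Ltf read 6.07 to 13.6 TPM in experiment 3. The first 1 hr control library of experiment 1 stood apart in stromal markers (117 TPM summed against 2.56 in the second). Pbrm1 measured 4.54 and 5.03 TPM in Pbrm1-/- cells against 15.6 and 14.7 in Pbrm1 f/f cells at 4 hr. Arid1a was only partly lower in cells labelled Arid1a-/-: 7.17 and 13.2 against 18.3 and 17.3 TPM at 1 hr, and 25.4 and 26.1 against 35.2 and 41.9 TPM at 4 hr. The degrader and the inhibitor act on protein, which these libraries do not measure. In bulk RNA, fewer cells expressing a receptor and less transcript per cell cannot be told apart.

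A gene was called changed when limma on log2(TPM + 1) gave a Benjamini-Hochberg adjusted p under 0.05 over all tested genes, both on TPM as deposited and on TPM rescaled by a median-ratio factor, with the same sign. Changes in log2(TPM + 1) ± standard error are from TPM as deposited, as are the adjusted p-values. The rescaling mattered because the stimulus moved the median tested gene on deposited TPM by -0.33 at 60 min (experiment 4), by -0.38 and -0.84 at 1 and 4 hr (experiment 1), by -0.15 and -0.63 (experiment 2) and by -0.75 at 4 hr (experiment 3). The compounds at 4 hr moved it by 0.25 (ACBI1), 0.43 (BRM014) and 0.46 (BRDK98). ACBI1 at 60 min moved it by -0.14 and loss of Pbrm1 by -0.12. Rescaling brought these medians close to 0.

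In control cells the receptors differed in course. Ccrl2 was raised by 20 min and was the highest of the 9 by 60 min. Gpr84 and Adora2b were high by 1 hr, and Adora2a, Fpr1 and Fpr2 reached their highest levels at 4 hr. Cxcr4 fell from being the most abundant receptor at rest to at most 3.63 TPM at 4 hr. Ednrb rose at 1 hr, with a direction at 4 hr that depended on the scaling, and Cx3cr1 was low throughout. At 20 min of lipid A 1 of 9 receptors was called, Ccrl2, where 1.06% of all tested genes were (2 of 9 without either 60 min BRM014 library). At 60 min in experiment 4, 6 of 9 were called (25.3% of all tested genes), and at 1 hr 7 of 9 were called in experiment 1 (29.2%) and 8 of 9 with LPS in experiment 2 (33.9%). At 4 hr the counts were 8 of 9 in experiment 1 (57.3%), 8 of 9 with LPS in experiment 2 (53.2%) and 6 of the 8 tested in experiment 3 (46.3%), where Cx3cr1 did not pass the filter on low values. Nothing is read from the 4 hr counts.

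**Figure D1:**
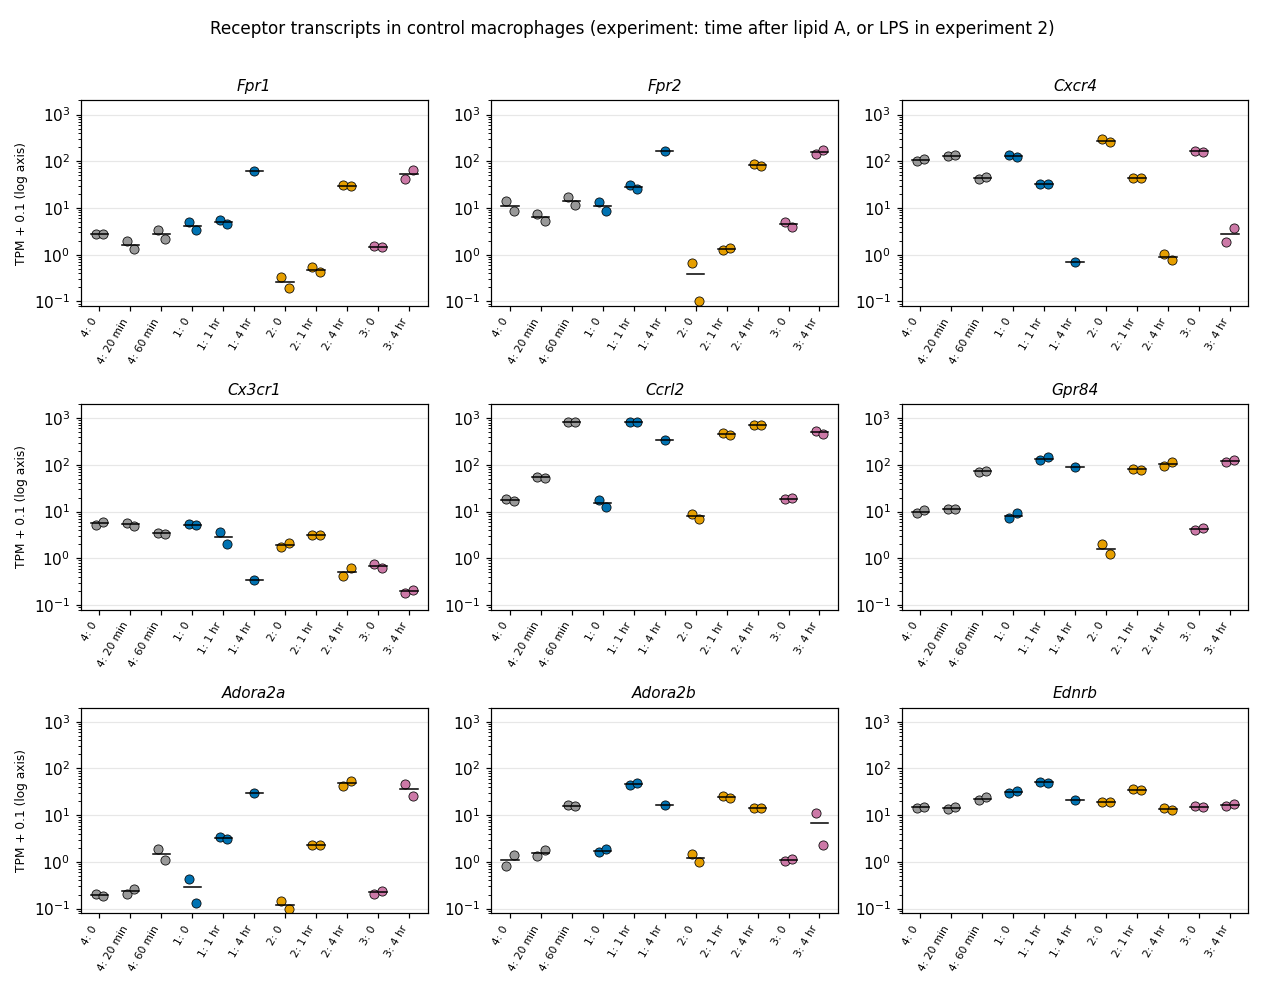
Levels of the 9 receptor transcripts in control macrophages, as TPM + 0.1 on a log axis, against experiment number and time after lipid A (LPS in experiment 2). Points are single libraries, colours are experiments and bars are group means; Ccrl2 is at 439 TPM or more at 60 min and 1 hr, while Cxcr4 falls from at least 102 TPM to at most 3.63 TPM at 4 hr.

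At rest in experiment 1 the order of levels, in TPM, was Cxcr4 (134 and 125), Ednrb (30.02 and 32.6), Ccrl2 (17.4 and 12.5), Fpr2 (13.4 and 8.40), Gpr84 (7.06 and 9.05), Cx3cr1 (5.30 and 4.98), Fpr1 (4.82 and 3.29), Adora2b (1.51 and 1.75) and Adora2a (0.334 and 0.034). The libraries of Ccrl2 and Fpr2 overlapped, as did those of Fpr2 and Gpr84, and Cx3cr1 and Fpr1 differed by less than the spread of Fpr1. After 4 hr of lipid A the single control library read 343 TPM for Ccrl2, 167 for Fpr2, 89.7 for Gpr84, 61.9 for Fpr1, 29.1 for Adora2a, 21.5 for Ednrb, 16.1 for Adora2b, 0.595 for Cxcr4 and 0.239 for Cx3cr1.

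The formyl peptide receptor genes reached their highest levels at 4 hr, but Fpr2 was already called higher at 1 hr in experiments 1 and 2. In experiment 4 Fpr1 measured 2.72 and 2.65 TPM at 0 min, 1.82 and 1.26 at 20 min, and 3.27 and 2.12 at 60 min, with overlapping libraries at 0 and 60 min and no call at either time. Fpr2 measured 13.7 and 8.32, then 7.36 and 5.17, then 16.8 and 11.3 TPM, and was not called there. By 1 hr in experiment 1 Fpr2 had risen to 30.6 and 25.3 TPM (1.31 ± 0.28, adjusted p = 0.00423), whereas Fpr1, at 5.37 and 4.38 TPM, had not passed the test (0.23 ± 0.18, adjusted p = 0.302). In experiment 2 both genes started near the floor, Fpr1 at 0.236 and 0.096 TPM and Fpr2 at 0.562 and 0 TPM. At 1 hr of LPS Fpr2 read 1.15 to 1.29 TPM (0.83), a call lost with a pseudocount of 0.1, and Fpr1 was not called. With 4 hr of LPS both genes were higher, at 30.7 and 29.5 TPM (Fpr1) and 85.6 and 79.0 TPM (Fpr2). In experiment 3 lipid A took Fpr1 from 1.44 and 1.35 TPM to 40.9 and 65.8 TPM, and Fpr2 from 4.92 and 3.87 to 144 and 170 TPM. The 4 hr libraries of both genes lay above every resting library in each experiment. Between 1 and 4 hr in experiment 1, Fpr1 (3.43 ± 0.23), Fpr2 (2.54 ± 0.35) and Adora2a (2.86 ± 0.19) were the 3 receptors that rose, among 8 of 9 called (57.2% of all tested genes, 22.7% higher and 34.5% lower), and the 5 genes Adora2b, Ccrl2, Cxcr4, Cx3cr1 and Ednrb fell.

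Cxcr4, whose ligand CXCL12 holds leukocytes in the marrow, went the other way. In experiment 4 it measured 102 and 111 TPM at 0 min, 126 and 135 TPM at 20 min and 42.0 and 46.2 TPM at 60 min. The 20 min libraries were both above the resting ones, without a call (0.30 ± 0.09, adjusted p = 0.110), and the 60 min libraries were both below them (-1.25 ± 0.09, adjusted p = 6.4e-08). At 1 hr it fell to 32.5 and 32.7 TPM in experiment 1 (-1.95 ± 0.17) and from 293 and 252 to 43.8 and 44.4 TPM with LPS (-2.60 ± 0.13). At 4 hr it stood at 0.95 and 0.664 TPM in experiment 2 and at 1.76 and 3.63 TPM in experiment 3, from 163 and 160 TPM at rest.

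Cx3cr1, the fractalkine receptor of monocytes and many tissue macrophages, was low in these cells. In experiment 4 it measured 5.13 and 5.94 TPM at rest and 3.44 and 3.17 TPM at 60 min, a difference of -0.60 ± 0.14 on deposited TPM that was not called after rescaling (-0.27). In experiment 1 it measured 3.55 and 1.88 TPM at 1 hr, and that difference (-0.76 ± 0.21) was also lost on rescaling (-0.40). With LPS in experiment 2 it was instead higher at 1 hr, 2.995 and 3.12 against 1.66 and 1.99 TPM (0.52 ± 0.14, adjusted p = 0.0103), a call lost with a pseudocount of 0.1 and without the first 0 hr or the second 1 hr library. At 4 hr it was at 0.317 and 0.511 TPM there, and in experiment 3 it was below 1 TPM in every library.

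Ccrl2, which presents chemerin to other cells, was the first receptor called and reached the highest levels. It measured 18.8 and 16.6 TPM at 0 min, 54.8 and 52.3 TPM at 20 min and 835 and 807 TPM at 60 min in experiment 4. The 3 times did not overlap, and both rises passed the test (1.54 ± 0.14 at 20 min, adjusted p = 2.7e-05, and 5.46 ± 0.14 at 60 min, adjusted p = 1.98e-12). In experiment 1 it reached 826 and 817 TPM at 1 hr (5.70 ± 0.12) and stood lower at 4 hr, a fall from 1 hr of -1.26 ± 0.15. With LPS it read 471 and 439 TPM at 1 hr and 726 and 716 TPM at 4 hr, from 8.91 and 6.96 TPM at rest, so the later time was the higher one in that experiment. In experiment 3 it went from 18.2 and 19.5 to 539 and 457 TPM.

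Gpr84, the medium-chain fatty acid receptor, was near its resting level at 20 min (11.1 and 11.4 against 9.29 and 10.5 TPM, 0.17 ± 0.09, adjusted p = 0.331). It read 71.1 and 73.1 TPM at 60 min (2.75 ± 0.09, adjusted p = 2.32e-11), and 126 and 145 TPM at 1 hr in experiment 1 (3.92 ± 0.12). With LPS it went from 1.88 and 1.14 TPM to 80.9 and 78.0 TPM at 1 hr (5.02 ± 0.15) and to 92.7 and 114 TPM at 4 hr. In experiment 3 the 4 hr libraries read 114 and 130 TPM against 3.90 and 4.25 TPM at rest. The stimulated libraries lay above the resting ones from 60 min on in all 4 experiments.

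The adenosine receptor genes differed in timing. Adora2b measured 1.51 and 1.75 TPM at rest in experiment 1 and 43.3 and 48.9 TPM at 1 hr (4.16 ± 0.10, adjusted p = 5.23e-10), and had fallen by 4 hr (-1.46 ± 0.13 from 1 hr). Adora2a was at 3.26 and 3.02 TPM at 1 hr (1.82 ± 0.16) and rose further by 4 hr. In experiment 2 Adora2b read 25.3 and 23.2 TPM at 1 hr and 13.97 and 14.2 TPM at 4 hr, and Adora2a read 2.22 and 2.20 TPM and then 42.0 and 53.2 TPM. In experiment 4 Adora2b reached 16.2 and 15.5 TPM at 60 min (3.09 ± 0.15) and Adora2a 1.79 and 1.01 TPM (1.11 ± 0.14). In experiment 3 the 4 hr controls disagreed on Adora2b, at 10.9 and 2.25 TPM, and on Adora2a, at 45.8 and 26.1 TPM. The Adora2b difference there (1.62 ± 0.63) was not called, and it was 2.56 without the second control library and 0.69 without the first, both called.

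Ednrb, the type B endothelin receptor, moved by small amounts. It measured 52.3 and 49.9 TPM at 1 hr of lipid A (0.69 ± 0.10, adjusted p = 0.000275). It read 36.2 and 33.6 against 19.0 and 18.7 TPM at 1 hr of LPS (0.86 ± 0.11) and 20.6 and 24.4 against 14.1 and 15.2 TPM at 60 min in experiment 4 (0.59 ± 0.11). The 1 hr libraries of experiment 1 were alike although the first carried the stromal signal, and the rise was 0.66 without that library. At 4 hr its direction depended on the scaling. It was -0.52 and -0.45 on deposited TPM in experiments 1 and 2 and 0.44 and 0.22 after rescaling, and 0.11 against 0.90 in experiment 3.

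The compounds were compared with controls at the same time, and the 3 compounds share those controls. At 20 min of lipid A ACBI1 changed 0 of 9 receptors by limma (0.139% of all tested genes called). Gpr84 and Adora2b, 2 of 9, had an unadjusted p under 0.05, and limma voom on recovered reads called 1. Without either 60 min BRM014 library 2 were called. BRM014 changed 1 of 9 (0.39% of all tested genes) and BRDK98 3 of 9 (1.32%). Ccrl2 measured 20.0 and 19.2 TPM with BRM014 (-1.40 ± 0.14, adjusted p = 0.000236) and 20.6 and 21.2 TPM with BRDK98 (-1.31 ± 0.14, adjusted p = 0.000144), and 61.8 and 57.8 TPM with ACBI1. The BRM014 and BRDK98 libraries lay just above the unstimulated 18.8 and 16.6 TPM and the ACBI1 libraries just above the 20 min controls. BRDK98 also lowered Cxcr4 to 81.7 and 95.3 TPM (-0.56 ± 0.09, adjusted p = 0.00289) and Gpr84 to 7.54 and 7.84 TPM (-0.50 ± 0.09, adjusted p = 0.0118). The Cxcr4 call was lost without the second 20 min control or the first BRDK98 library, and the Gpr84 call without any 1 of the 4 libraries compared, without either 60 min control and with no filter on low values.

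By 60 min every receptor differed from control with at least 1 compound, and the compounds parted. ACBI1 changed 6 of 9 (24.9% of all tested genes), BRM014 all 9 (29.8%) and BRDK98 7 of 9 (11.6%). The 60 min BRM014 libraries had the widest replicate spread in experiment 4 (SD 0.309 on the log2 scale, against at most 0.186 in the other groups). Standard errors draw on all groups of the experiment, so those for BRM014 at 60 min may be too small. BRM014 and BRDK98 lowered Fpr1, Fpr2, Adora2a, Adora2b, Ccrl2 and Ednrb. BRDK98 raised Cxcr4 by 1.51 and BRM014 by 0.27, and the BRM014 call of Cxcr4 was lost without any 1 of the libraries compared. ACBI1 raised Fpr1, Fpr2 and Gpr84 and lowered Cxcr4, Cx3cr1 and Ednrb.

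**Figure D2:**
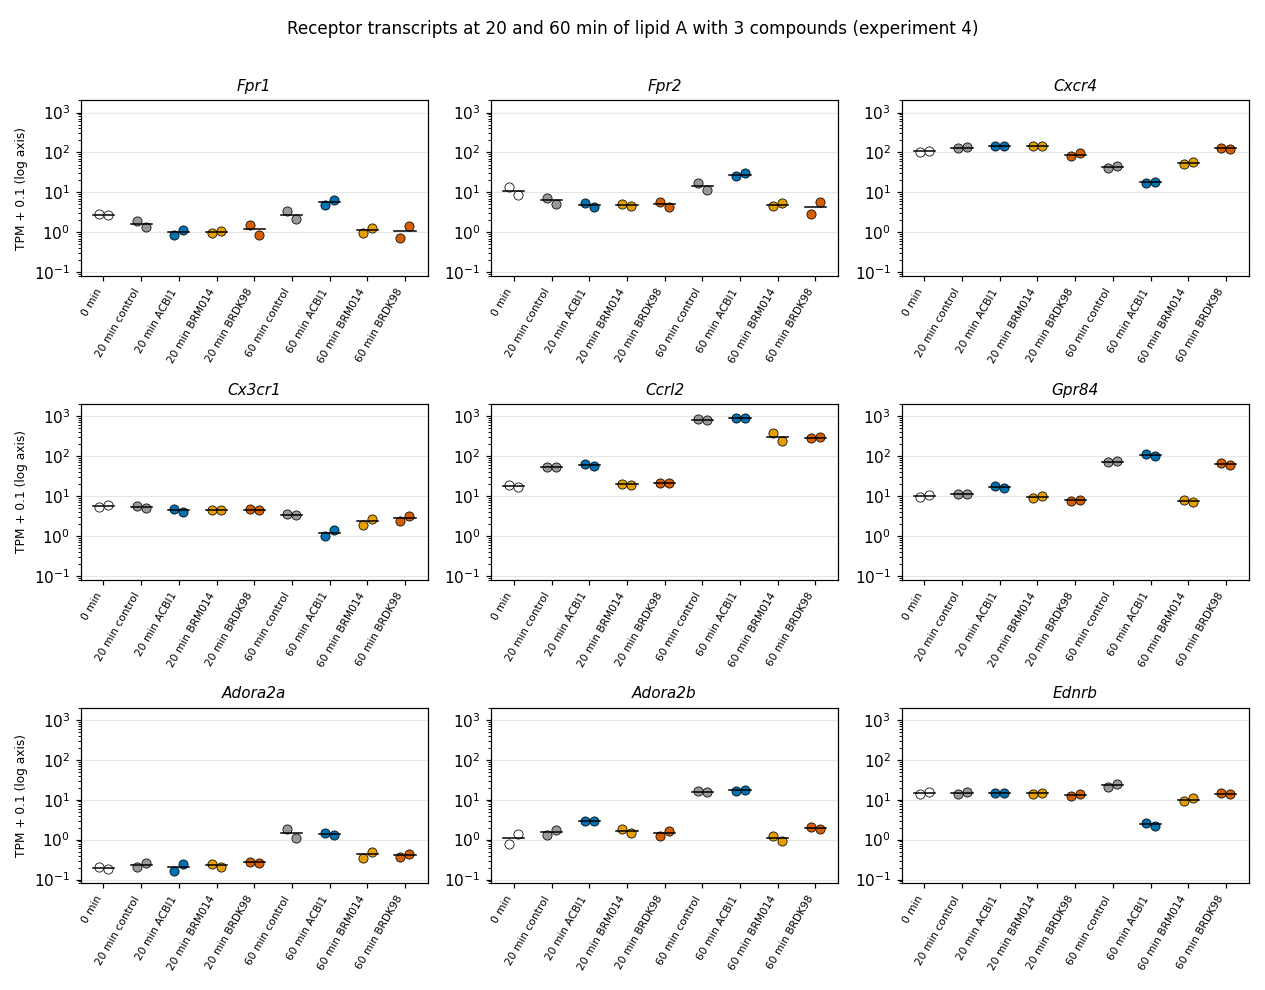
Levels of the 9 receptor transcripts in experiment 4, as TPM + 0.1 on a log axis, for unstimulated controls (white) and for control (grey), ACBI1 (blue), BRM014 (orange) and BRDK98 (red) cells at 20 and 60 min of lipid A. Points are single libraries and bars are group means; Gpr84 at 60 min is at 8.04 and 7.16 TPM with BRM014 and at 61.3 TPM or more in the other 60 min groups.

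Gpr84 separated BRM014 from BRDK98 at 60 min. It measured 8.04 and 7.16 TPM with BRM014, below the unstimulated 9.29 and 10.5 TPM (-3.09 ± 0.09 against 60 min controls, adjusted p = 3.49e-11). With BRDK98 it measured 66.2 and 61.3 TPM, which was not called (-0.18 ± 0.09, 95% interval -0.37 to 0.02), and with ACBI1 113 and 99.9 TPM (0.56 ± 0.09). Adora2b was low with both: 1.16 and 0.80 TPM with BRM014 (-3.09 ± 0.15) and 2.01 and 1.72 TPM with BRDK98 (-2.56 ± 0.15), against 16.2 and 15.5 TPM in controls and 16.8 and 17.6 TPM with ACBI1. Adora2a was at most 0.404 TPM in all 4 BRM014 and BRDK98 libraries against 1.79 and 1.01 TPM in controls. Ccrl2 reached 369 and 236 TPM with BRM014 (-1.47 ± 0.14) and 284 and 294 TPM with BRDK98 (-1.50 ± 0.14), and 906 and 872 TPM with ACBI1 (0.12 ± 0.14, adjusted p = 0.552).

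Cxcr4 at 60 min was ordered by compound without overlap: 17.0 and 18.4 TPM with ACBI1 (-1.27 ± 0.09), 42.0 and 46.2 TPM in controls, 50.3 and 56.5 TPM with BRM014 (0.27 ± 0.09, adjusted p = 0.0277) and 129 and 125 TPM with BRDK98 (1.51 ± 0.09, adjusted p = 2.13e-08). The BRDK98 libraries were above the unstimulated 102 and 111 TPM. Ednrb fell to 2.504 and 2.13 TPM with ACBI1 (-2.82 ± 0.11, adjusted p = 4.36e-09), to 8.94 and 10.9 TPM with BRM014 (-1.11 ± 0.11) and to 14.2 and 13.9 TPM with BRDK98 (-0.64 ± 0.11). The ACBI1 and BRM014 libraries were below the unstimulated 14.1 and 15.2 TPM, and those of BRDK98 were close to them. Endothelial and stromal markers summed to 9.69 to 9.85 TPM with ACBI1 and at most 3.70 TPM in the other 60 min groups. Only 1 of these 6 markers reached 1 TPM in at least 2 libraries of experiment 4, and their part in the result was not tested. Cx3cr1 read 0.877 and 1.32 TPM with ACBI1 (-1.05 ± 0.14) and 1.82 and 2.61 TPM with BRM014 (-0.43 ± 0.14, adjusted p = 0.0307). The BRM014 calls of Cxcr4 and Cx3cr1 were lost without either control library or without the first BRM014 library, and that of Cxcr4 also without the second.

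Fpr2 measured 25.1 and 29.7 TPM with ACBI1 at 60 min (0.94 ± 0.29, adjusted p = 0.0206), 4.46 and 5.20 TPM with BRM014 (-1.34 ± 0.29) and 2.81 and 5.61 TPM with BRDK98 (-1.56 ± 0.29), against 16.8 and 11.3 TPM in controls. Fpr1 measured 4.65 and 6.41 TPM with ACBI1 (0.83 ± 0.21, adjusted p = 0.0077), 0.885 and 1.17 TPM with BRM014 (-0.85 ± 0.21) and 0.646 and 1.32 TPM with BRDK98 (-0.90 ± 0.21), against 3.27 and 2.12 TPM. ACBI1 libraries were above and BRM014 and BRDK98 libraries below the controls for both genes. The ACBI1 rise of both genes was lost without the second control or the second ACBI1 library. For Fpr1, the BRM014 call was lost without the first control and the BRDK98 call without the first control or the first BRDK98 library. Neutrophils also express both genes, and their markers summed to 270 and 285 TPM with ACBI1, 444 to 508 TPM with BRM014 and 410 to 484 TPM with BRDK98, against 425 and 442 TPM in controls, and their part in the result was not tested.

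At 4 hr in experiment 1 the formyl peptide receptors were the receptors low with all 3 compounds. ACBI1 changed 4 of 9 receptors (33.4% of all tested genes), BRM014 5 of 9 (42.7%) and BRDK98 7 of 9 (34.5%), and nothing is read from these counts. Fpr1 stood at 61.9 TPM in the single control library and at 9.85 and 7.31 TPM with ACBI1 (-2.73 ± 0.23). It stood at 0.128 and 0.105 TPM with BRM014 (-5.82 ± 0.23) and at 1.07 and 1.31 TPM with BRDK98 (-4.85 ± 0.23). The BRM014 values of Fpr1 rest on 2 reads in total, where 3 reads correspond to up to 0.384 TPM. The size of that change therefore depends on the pseudocount. Fpr2 stood at 167 TPM in the control library and at 34.1 and 28.7 TPM with ACBI1 (-2.38 ± 0.35). It stood at 0.783 and 2.04 TPM with BRM014 (-6.17 ± 0.35) and at 17.0 and 20.8 TPM with BRDK98 (-3.09 ± 0.35). With BRM014 both genes were below the unstimulated libraries of the same experiment, with ACBI1 both were above them, and with BRDK98 Fpr1 was below and Fpr2 above. Neutrophil markers summed to 21.6 TPM in the control, 24.0 and 30.7 TPM with ACBI1, 42.8 and 50.6 TPM with BRM014 and 6.33 and 6.60 TPM with BRDK98, and their part in the result was not tested. With 1 control library, the error here comes from the other groups.

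**Figure D3:**
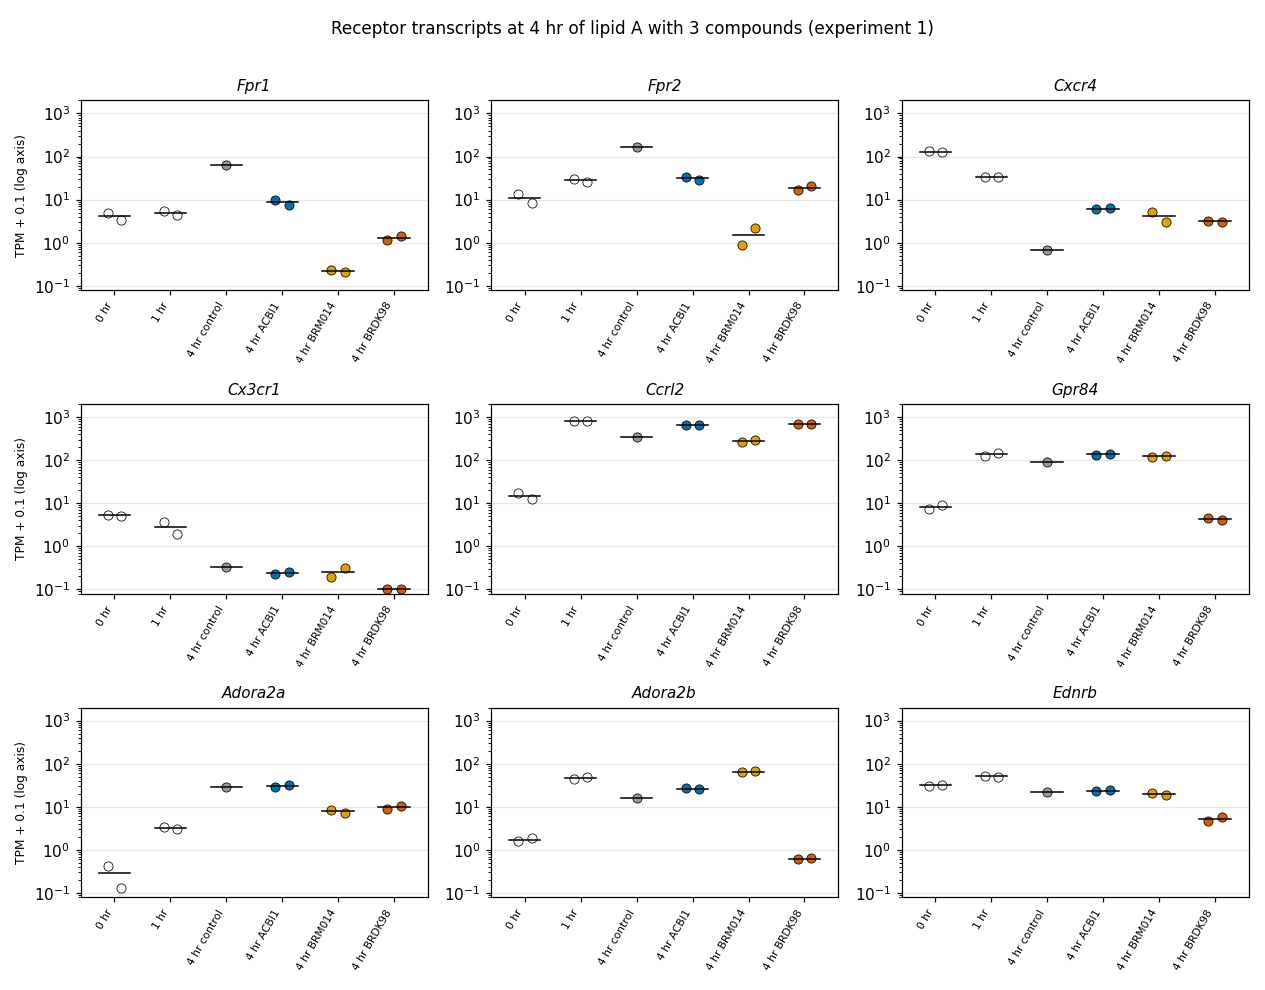
Levels of the 9 receptor transcripts in experiment 1, as TPM + 0.1 on a log axis, for control cells at 0 and 1 hr (white) and for control (grey, 1 library), ACBI1 (blue), BRM014 (orange) and BRDK98 (red) cells at 4 hr of lipid A. Points are single libraries and bars are group means; Gpr84 and Adora2b are low with BRDK98 and high with BRM014.

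BRDK98 and BRM014 split Gpr84 and Adora2b at 4 hr. Gpr84 measured 4.32 and 3.99 TPM with BRDK98 (-4.14 ± 0.14, adjusted p = 3.18e-08), below the unstimulated libraries, against 89.7 TPM in the control, 121 and 126 TPM with BRM014 and 132 and 142 TPM with ACBI1. Adora2b measured 0.51 and 0.537 TPM with BRDK98 (-3.49 ± 0.13, adjusted p = 4.52e-08) and 65.1 and 65.9 TPM with BRM014 (1.96 ± 0.13), against 16.1 TPM in the control and 27.8 and 25.2 TPM with ACBI1. Adora2a was lower with both, at 8.52 and 7.25 TPM (BRM014) and 8.79 and 10.4 TPM (BRDK98, -1.51 ± 0.19, adjusted p = 8.74e-05) against 29.1 TPM, and was 28.1 and 32.8 TPM with ACBI1 (0.06 ± 0.19, 95% interval -0.36 to 0.48, and -0.30 after rescaling).

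Cxcr4 at 4 hr was higher with each compound than in the single control library, which read 0.595 TPM, against 134 and 125 TPM at rest. It measured 6.06 and 6.13 TPM with ACBI1 (2.15 ± 0.20), 5.13 and 2.99 TPM with BRM014 and 3.11 and 3.001 TPM with BRDK98 (1.35 ± 0.20). The control value of Cxcr4 rests on 6 reads, where 3 reads correspond to 0.297 TPM. The 4 hr controls of experiment 3 read 1.76 and 3.63 TPM, and those of experiment 2, with LPS, 0.95 and 0.664 TPM. So the BRDK98 values lie within the range of 4 hr controls in the series. The BRDK98 call was lost in limma voom on recovered reads. Ccrl2 measured 642 and 651 TPM with ACBI1 (0.91 ± 0.15) and 268 and 291 TPM with BRM014, against 343 TPM. With BRDK98 it measured 688 and 708 TPM (1.02 ± 0.15, 0.38 and not called after rescaling). The 4 hr controls of Ccrl2 read 457 to 539 TPM in experiment 3 and 716 to 726 TPM in experiment 2, with LPS. Its ACBI1 and BRDK98 values therefore also lie within the range of 4 hr controls in the series. Ednrb fell with BRDK98, to 4.64 and 5.60 TPM from 21.5 TPM (-1.88 ± 0.13, adjusted p = 2.33e-06), and read 23.3 and 24.0 TPM with ACBI1 and 20.6 and 18.7 TPM with BRM014. Endothelial and stromal markers summed to 14.7 TPM in the control and to 8.47 to 9.74 TPM with BRDK98. Melanocyte and glia markers summed to 16.8 TPM and to 8.50 to 9.30 TPM. In experiment 1 only 1 of the 6 former and 1 of the 4 latter markers reached 1 TPM in at least 2 libraries. Their part in the lower Ednrb was not tested. Cx3cr1 was at or below 0.239 TPM in all 7 libraries at 4 hr, and was listed at 0 in both BRDK98 libraries, where 3 reads would correspond to 0.094 and 0.099 TPM.

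The 3 pairs of compounds were also tested directly at each of 60 min and 4 hr, at doses the labels do not give. At 60 min BRM014 and ACBI1 differed in 9 of 9 receptors (46.7% of all tested genes), BRDK98 and ACBI1 in 9 of 9 (34.4%) and BRDK98 and BRM014 in 4 of 9 (26.5%). The 4 were Gpr84 (2.91 ± 0.09 higher with BRDK98), Cxcr4 (1.24 ± 0.09), Adora2b (0.53 ± 0.15) and Ednrb (0.47 ± 0.11). For the others the 95% intervals of the difference ran from -0.50 to 0.41 for Fpr1, -0.84 to 0.41 for Fpr2, -0.32 to 0.28 for Adora2a, -0.34 to 0.28 for Ccrl2 and -0.11 to 0.50 for Cx3cr1. At 4 hr BRM014 and ACBI1 differed in 6 of 9 (30.1%), BRDK98 and ACBI1 in 6 of 9 (36.5%) and BRDK98 and BRM014 in 6 of 9 (45.3%). BRDK98 was below BRM014 for Adora2b (-5.45 ± 0.10, adjusted p = 9.2e-10), Gpr84 (-4.59 ± 0.12, adjusted p = 2.98e-09) and Ednrb (-1.76 ± 0.10). It was above BRM014 for Fpr2 (3.09 ± 0.28), Ccrl2 (1.32 ± 0.12) and Fpr1 (0.97 ± 0.18), where the BRM014 values of Fpr1 were below the level of 3 reads. So Gpr84 was higher with BRDK98 than with BRM014 at 60 min and lower at 4 hr, in separate experiments. The Adora2b difference at 60 min was lost without the second BRM014 or the first BRDK98 library, and the Cx3cr1 difference between BRM014 and ACBI1 without the first ACBI1 library. At 4 hr the lower Cxcr4 with BRM014 than with ACBI1 (-0.52 ± 0.17) was lost without either ACBI1 library or the second BRM014 library.

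**Figure D4:**
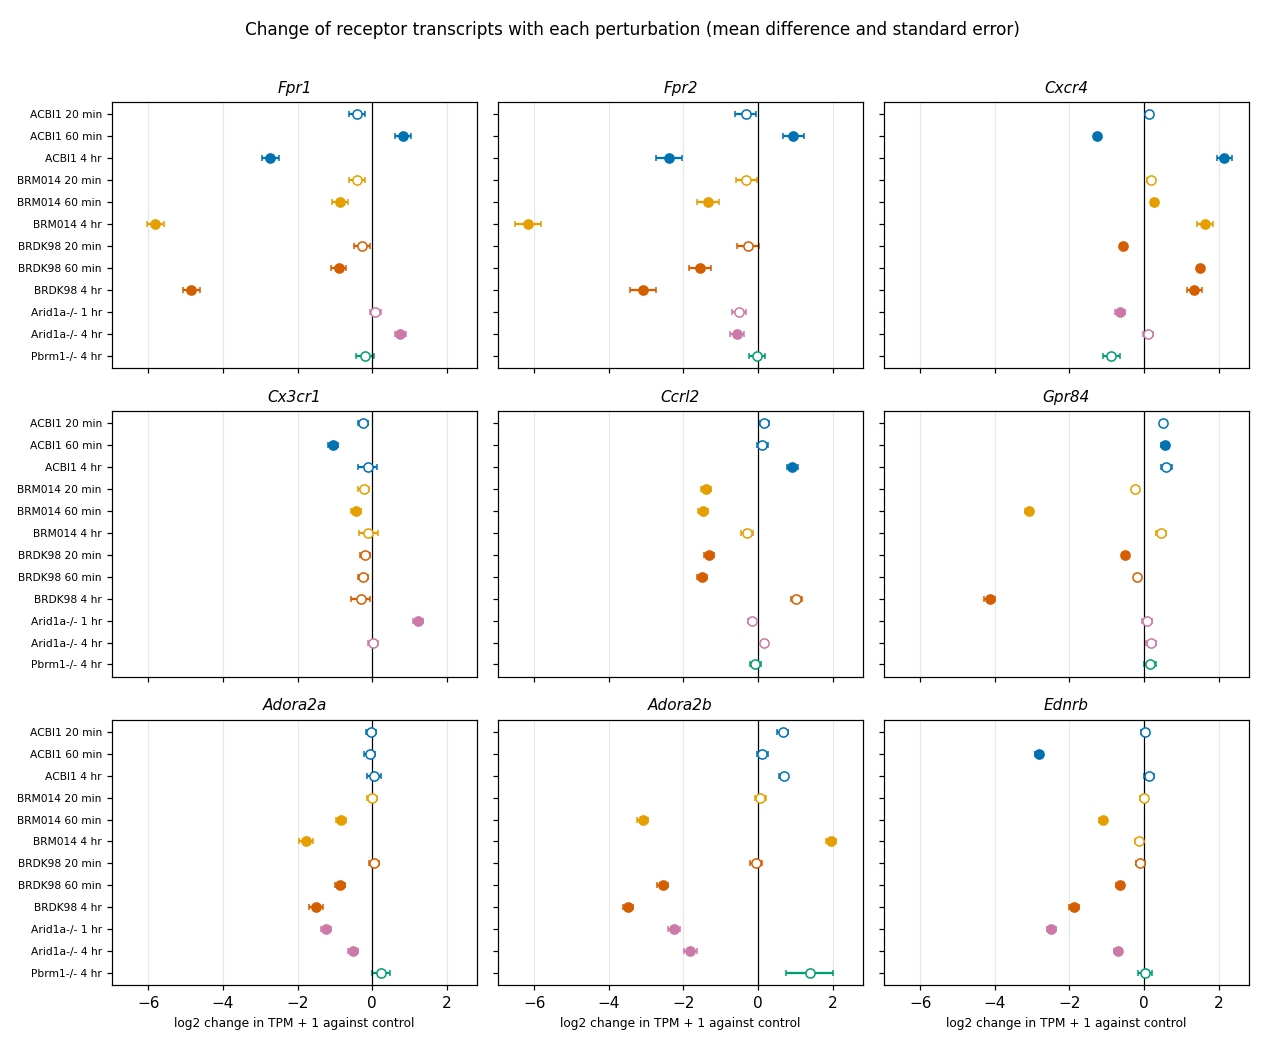
Change of each receptor transcript against control in log2(TPM + 1) for the 3 compounds at 20 min, 60 min and 4 hr and for loss of Arid1a or Pbrm1. Points are differences of group means with standard errors, colours mark the perturbation, and points are filled where the change was called on both scalings; Fpr1 and Fpr2 are right of 0 with ACBI1 at 60 min and left of 0 at 4 hr.

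With loss of Arid1a, 5 of 9 receptors changed at 1 hr of LPS (35.6% of all tested genes) and 5 of 9 at 4 hr (24.9%). The 1 hr Arid1a-/- libraries had the widest replicate spread in experiment 2 (SD 0.270 on the log2 scale, against at most 0.194 in the other groups). Standard errors for Arid1a loss at 1 hr, and for its difference between 4 and 1 hr, may therefore be too small. Adora2b was low at both times, 4.23 and 4.39 against 25.3 and 23.2 TPM at 1 hr (-2.25 ± 0.17, adjusted p = 9.07e-06) and 2.62 and 4.09 against 13.97 and 14.2 TPM at 4 hr (-1.81 ± 0.17, adjusted p = 4.55e-05). Adora2a was at 0.376 and 0.335 against 2.22 and 2.20 TPM at 1 hr (-1.24 ± 0.14, adjusted p = 7.85e-05) and at 30.4 and 35.0 against 42.0 and 53.2 TPM at 4 hr (-0.52 ± 0.14, adjusted p = 0.0166). Ednrb fell to 5.05 and 5.81 from 36.2 and 33.6 TPM at 1 hr (-2.48 ± 0.11, adjusted p = 9.38e-07), below the 19.0 and 18.7 TPM of unstimulated Arid1a f/f cells, and to 8.65 and 7.25 from 14.002 and 13.025 TPM at 4 hr (-0.70 ± 0.11, adjusted p = 0.00134). Endothelial cells, melanocytes and glia also express Ednrb. Endothelial and stromal markers summed to 5.69 to 8.72 TPM in Arid1a-/- cells against 2.32 to 2.70 TPM in controls at 1 hr, and to 55.3 to 62.2 against 29.9 to 30.02 TPM at 4 hr. Melanocyte and glia markers summed to 0.739 to 1.08 against 1.14 to 1.36 TPM at 1 hr, and to 1.016 to 1.019 against 1.74 to 2.66 TPM at 4 hr. The first sum was higher and the second lower without Arid1a. In experiment 2 only 1 of the 6 endothelial and stromal markers and 1 of the 4 melanocyte and glia markers reached 1 TPM in at least 2 libraries. The sums therefore do not show a shift of a whole marker set, and their part in the result was not tested.

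**Figure D5:**
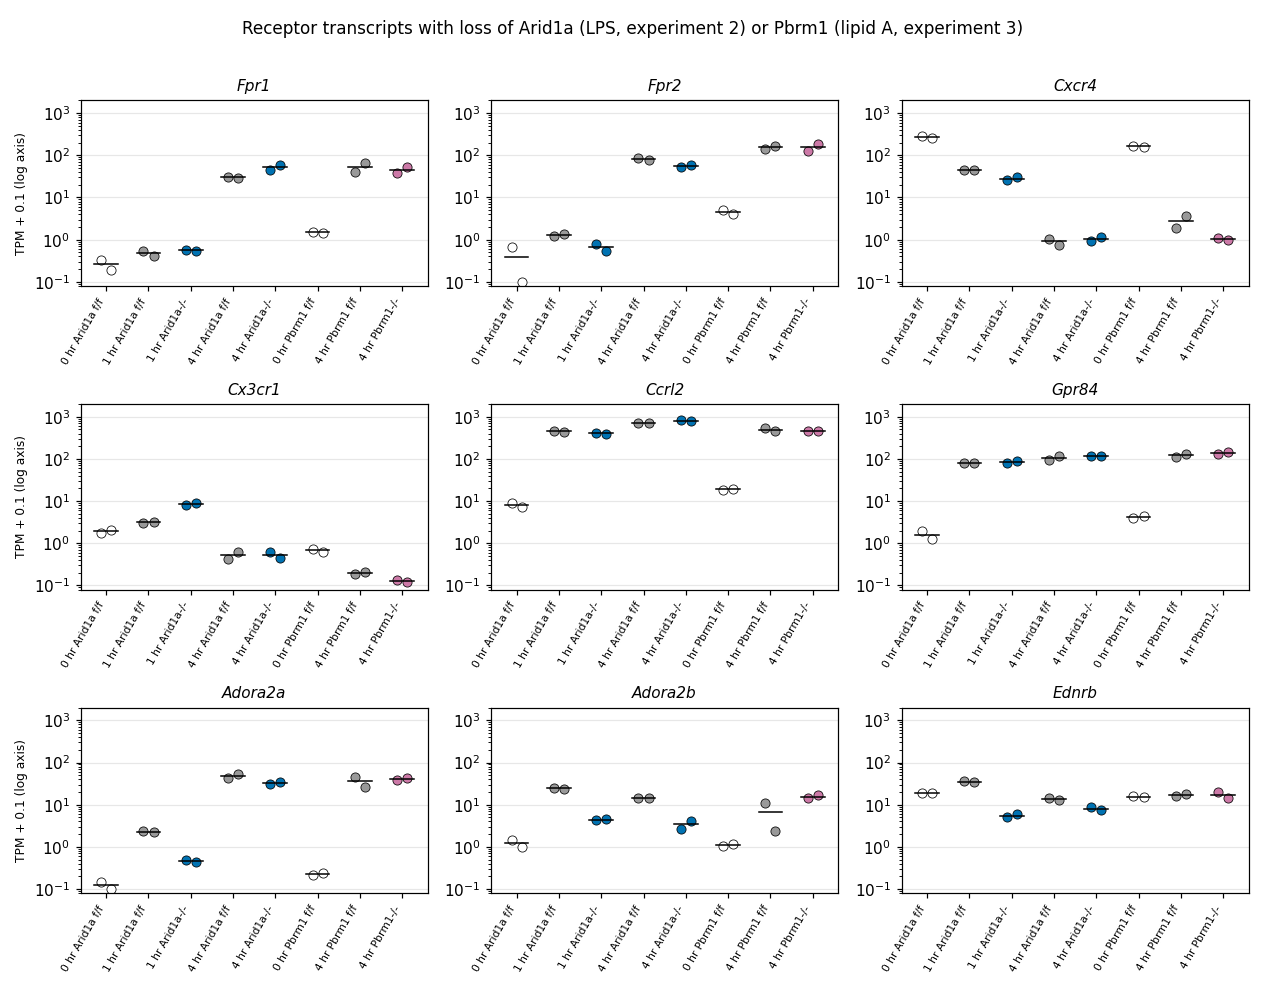
Levels of the 9 receptor transcripts as TPM + 0.1 on a log axis in experiment 2 (LPS, Arid1a f/f white or grey, Arid1a-/- blue) and experiment 3 (lipid A, Pbrm1 f/f white or grey, Pbrm1-/- pink). Points are single libraries and bars are group means; Ednrb and Adora2b are lower in Arid1a-/- cells at both times.

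Cx3cr1 was higher in Arid1a-/- cells at 1 hr, 8.13 and 8.95 against 2.995 and 3.12 TPM (1.23 ± 0.14, adjusted p = 8.3e-05), and Cxcr4 was lower, 25.4 and 30.7 against 43.8 and 44.4 TPM (-0.64 ± 0.13, adjusted p = 0.00313). At 4 hr neither differed by a call, with 0.534 and 0.34 TPM for Cx3cr1 and 0.849 and 1.03 TPM for Cxcr4. The formyl peptide receptor genes diverged at 4 hr. Fpr1 was higher without Arid1a, 44.7 and 59.4 against 30.7 and 29.5 TPM (0.76 ± 0.15, adjusted p = 0.00365), and Fpr2 was lower, 52.1 and 58.2 against 85.6 and 79.0 TPM (-0.57 ± 0.19, adjusted p = 0.0463). Neither pair of groups overlapped. Neutrophil markers summed to 28.6 to 35.3 TPM in Arid1a-/- cells against 15.7 to 25.4 TPM in controls at 4 hr, and their part in these differences was not tested. The Fpr2 call was lost in 9 alternatives, among them leaving out any 1 of the 4 libraries, the Fpr1 call without the second Arid1a-/- library, and the Adora2a call without the second control or the first Arid1a-/- library. All 3 calls were also lost with a pseudocount of 0.1. Gpr84 (116 and 119 against 92.7 and 114 TPM) and Ccrl2 (829 and 793 against 726 and 716 TPM) were not called at 4 hr. The effect of Arid1a loss itself differed between 4 and 1 hr for 3 of 9 receptors (15.9% of all tested genes): Ednrb (1.78 ± 0.16, adjusted p = 0.000161), Cx3cr1 (-1.21 ± 0.19, adjusted p = 0.00262) and Cxcr4 (0.74 ± 0.18, adjusted p = 0.0203). The last was lost without either 1 hr control, without the second library of either 4 hr group, and in limma voom.

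With loss of Pbrm1, limma called 0 of the 8 receptors tested (0.00905% of all tested genes). Cxcr4 alone had an unadjusted p under 0.05, and limma voom called 0. Cxcr4 measured 1.02 and 0.876 against 1.76 and 3.63 TPM (-0.88 ± 0.24, adjusted p = 0.468). Adora2b measured 14.3 and 16.4 against 10.9 and 2.25 TPM (1.39 ± 0.63, 95% interval -0.27 to 3.05), without overlap. The 95% intervals of the other 6 ran from -0.74 at the lowest (Fpr1) to 0.80 at the highest (Adora2a). The 4 hr Pbrm1 f/f group had the widest replicate spread of any group in the series (SD 0.328 on the log2 scale). Without its first library the differences were larger for Adora2b (2.33), Adora2a (0.64) and Cxcr4 (-1.25). That fit leaves 1 control library, so no call is read from it.

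In all, 50 other receptors for chemokines, complement, lipids, nucleotides and metabolites were listed for comparison, and 33 to 35 of them passed the filter on low values. At 60 min of lipid A 9 of the 35 tested rose and 8 fell (25.3% of all tested genes called). Those named by rule include the nucleotide receptor gene P2ry2 (34.6 against 5.86 TPM, 2.37 ± 0.13) and the sphingosine phosphate receptor gene S1pr2 (15.7 against 65.6 TPM, -2.00 ± 0.11). With ACBI1 at 60 min 17 of 35 rose and 7 fell, with a median change of 0.37 against -0.14 over all tested genes, of which 24.9% were called. With BRM014 2 rose and 25 fell (median -0.68 against 0.04, 29.8% of all tested genes called), and with BRDK98 3 rose and 13 fell (-0.22 against 0.08, 11.6%). The niacin receptor gene Hcar2 fell with both, from 10.9 to 0.597 TPM (BRM014, -2.90 ± 0.10) and to 0.408 TPM (BRDK98, -3.08 ± 0.10). At 4 hr 8 of 35 rose and 12 fell with ACBI1 (median -0.03 against 0.25, 33.4% of all tested genes called), 6 and 14 with BRM014 (-0.13 against 0.43, 42.7%), and 4 and 19 with BRDK98 (-0.60 against 0.46, 34.5%). The third adenosine receptor gene, Adora3, fell with all 3 compounds, from 19.6 TPM to 3.86 (ACBI1, -2.11 ± 0.24), 0.89 (BRM014, -3.45 ± 0.24) and 1.70 TPM (BRDK98, -2.93 ± 0.24). With loss of Arid1a 5 of 33 rose and 20 fell at 1 hr (median -0.41 against 0.03, 35.6%) and 5 rose and 12 fell at 4 hr (-0.11 against 0.05, 24.9%).

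Over the 45 libraries, after centring each experiment, the gene most alike to Fpr1 among 10409 compared was Fpr2 (Pearson's r of 0.96), followed by the serpin gene Serpina3g (0.96). The same was true of Fpr2 with Fpr1, followed by Serpina3f (0.94). Gpr84 was most like the phosphodiesterase gene Pde4b (0.93) and the inflammasome sensor gene Nlrp3 (0.92), Ccrl2 like the chemokine genes Ccl4 and Ccl3 (both 0.98), and Cxcr4 like Rragd and Gna12 (both 0.98). Adora2a was most like Tarm1 (0.97) and Fas (0.96), Adora2b like Gpr132 (0.90) and Lrrc63 (0.88), and Ednrb like Ldlrad4 (0.82) and Cd33 (0.79). Cx3cr1 was not compared because experiment 3 did not test it. These correlations describe libraries that share time courses and controls, and carry no test.

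In the authors' deposited table of comparisons, 169 of the receptor values tested here had a counterpart. Of the 96 called here, 96 had the same sign and 92 an adjusted p under 0.05 in the authors' deposited table. The other 4 were Fpr2 at 1 hr of LPS and Fpr1, Cxcr4 and Cx3cr1 with BRM014 at 60 min. For Cxcr4 the authors' deposited table gives a log2 change of 0.22 with an adjusted p of 0.691. The reverse did not hold throughout, as some values not called here had an adjusted p under 0.05 in the authors' deposited table. Among them were Ccrl2 with BRM014 at 4 hr (log2 change there of -0.77) and Adora2b at 4 hr of lipid A in experiment 3 (3.65). Gpr84 with ACBI1 at 20 min (0.58) and Cxcr4 at 20 min of lipid A (0.35) were others.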

How the data were processed

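Expression was measured in 45 libraries of mouse bone marrow-derived macrophages. The authors deposited TPM, which HOMER computed from exon reads counted on both strands of mm10 genes, per the file headers. STAR 2.5.3a, HOMER and DESeq2 are named in the submitters' processing notes. The authors' deposited comparison tables give log2 fold changes and adjusted p-values. The second 4 hr control column of experiment 1 repeated the first in all 24537 genes. It was the 1 column of values matched to no sample and was not used, so the 2 columns were counted as 1 sample.

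Genes with at least 1 TPM in at least 2 libraries of an experiment (11044 to 11798) were tested on log2(TPM + 1) with limma 3.58.1 in R 4.3.3 (trend and robust moderation), using all groups of that experiment and Benjamini-Hochberg adjustment over all genes. A call needed an adjusted p under 0.05 on TPM as deposited and on median-ratio-scaled TPM. Whole reads were recovered from the deposited TPM (100% of low values within 0.1 read), which gave 7015041 to 27527063 exonic reads per library, and floors of 3 reads. These floors cover counting error only. The fit was tested on simulated data. Of 100 genes changed 2-fold it recovered 46 for BRM014 at 4 hr and 83 for Arid1a-/- at 4 hr. It recovered 70 for Pbrm1-/- and 96 for BRM014 at 60 min. The simulation gave all groups of an experiment the same spread and left genes of low mean level unchanged. Its recovery may therefore be too high for low genes and for the wide groups, BRM014 at 60 min and Pbrm1 f/f at 4 hr.

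Members, lists and markers were chosen with earlier results of these data known. All 9 receptors are named. From each list up to 2 called genes with the highest and 2 with the lowest change, at 5 TPM or more, could be named, and the 2 most alike genes by correlation. Alternatives were another pseudocount, no filter, plain moderation, a replicate block, each scaling alone, limma voom on recovered reads, and leaving out each library.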

Additional observations from a re-analysis of the deposited data

Results flagged for a closer look

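The effect of Arid1a loss differed between 4 and 1 hr of LPS by the limma interaction test for Cxcr4 (0.74), Cx3cr1 (-1.21) and Ednrb (1.78), in log2(TPM + 1).

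The following values stand in opposite directions between times or experiments, and the differences were not tested. Cx3cr1 was 0.52 after 1 hr of LPS in experiment 2 against -0.76 after 1 hr of lipid A in experiment 1 and -0.60 after 60 min in experiment 4. Neither lipid A value was called after rescaling, and the LPS call was lost in 3 alternatives. With ACBI1, Fpr1 was 0.83 at 60 min and -2.73 at 4 hr, Fpr2 was 0.94 and -2.38, and Cxcr4 was -1.27 and 2.15. With BRM014, Adora2b was -3.09 at 60 min and 1.96 at 4 hr. With BRDK98, Cxcr4 was -0.56 at 20 min, 1.51 at 60 min and 1.35 at 4 hr, and Ccrl2 was -1.31, -1.50 and 1.02, the last of which was not called after rescaling.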

How the results depend on the processing

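Of 4861 values of single receptors under the 8 alternatives, 4742 kept their side of the threshold and 54 lost a call. A further 63 crossed the threshold in the same direction and 2 with the opposite sign. Changes of sign in values that stayed without a call were not counted. Those 2 were Ednrb at 4 hr of lipid A in experiment 1 on rescaled TPM alone (0.44) and Ccrl2 for BRDK98 against BRM014 at 60 min. The Ccrl2 value was 0.29 without the first BRM014 library, in a range of -0.35 to 0.29 over the libraries left out. Of 147 called values 18 were lost in at least 1 alternative. The count of called receptors for Arid1a-/- at 4 hr was 2 with a pseudocount of 0.1 and 3 to 5 when each library was left out, against 5. For lipid A at 20 min it was 2 on rescaled TPM alone and 1 to 2 on leaving out, against 1. For ACBI1 at 20 min it was 1 on deposited TPM alone, 1 with limma voom and 0 to 2 on leaving out, against 0. Leaving out gave 1 to 3 for BRDK98 at 20 min, against 3, and 0 to 3 for Pbrm1-/-, against 0, and the causes were not tested. Where 1 library is left in a group, it is assumed to vary like the other groups. Leaving out the single 4 hr control of experiment 1 gave no value. Over all genes, the count of calls moved by over 1.5 times in 9 of 27 comparisons on deposited TPM alone, 3 with limma voom and 1 in each other alternative that kept all libraries. Leaving out 1 library moved none in experiment 1, up to 3 of 5 in experiment 2 (without either 1 hr control), up to 2 of 2 in experiment 3 (without either 0 hr library) and up to 6 of 11 in experiment 4 (without the second 60 min BRM014 library), so the shares called over all genes vary as well.

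Replicate numbers did not clearly pair the samples: correlations of same-numbered deviations ran from -0.24 to 0.24. In experiment 3 all 3 were positive (0.014 to 0.228, median 0.146). A fit with the replicate block changed 0 of 241 receptor calls and 0 of 27 counts.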

Other observations

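Ligands of these receptors and enzymes that make or remove them were listed for comparison, and 14 to 16 of 19 passed the filter on low values. At 4 hr of lipid A in experiment 1, 6 of 15 rose and 3 fell, where 57.3% of all tested genes were called. Edn1, which encodes the endothelin bound by the product of Ednrb, was listed at 0 in the unstimulated libraries and read 217 TPM in the 4 hr control. With the compounds at 4 hr 2 rose and 4 fell (ACBI1, 33.4% of all tested genes called), 2 rose and 5 fell (BRM014, 42.7%) and 1 rose and 5 fell (BRDK98, 34.5%). These shares are close to those over all genes. Edn1 fell with all 3, to 77.8 TPM (ACBI1, -1.47 ± 0.20), 2.64 TPM (BRM014, -5.91 ± 0.20) and 1.79 TPM (BRDK98, -6.31 ± 0.20). Saa3, a serum amyloid A gene of the family whose proteins FPR2 can bind, was 8254 TPM in the control and 30.2 TPM with BRDK98 (-8.05 ± 0.47).

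Of 36 tested genes for G proteins, RGS proteins, arrestins, receptor kinases and cyclic AMP enzymes, 5 rose and 5 fell at 60 min of lipid A in experiment 4, close to the 25.3% called over all tested genes. Rgs1, which shortens G protein signalling, read 637 against 55.5 TPM (3.50 ± 0.15) and Pde4b, a cyclic AMP phosphodiesterase gene, 218 against 29.7 TPM (2.83 ± 0.09). At that time 3 rose and 13 fell with BRM014 (29.8% of all tested genes called), and 1 rose and 8 fell with BRDK98 (11.6%). The gene that rose with BRDK98 was Rgs2, also a regulator of G protein signalling, at 374 against 24.1 TPM (3.90 ± 0.09).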
